A study of Gallus gallus with 31 samples.

Results

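Anterior pituitary RNA of high growth (HG) and low growth (LG) male chickens was compared at post-hatch week 5. The comparison used the 8 arrays of that age, 4 HG birds and 4 LG birds, of 31 arrays in the series; the others were 7 arrays at week 1, 8 at week 3 and 8 at week 7. The 2 meat-type lines were selected in opposite directions for juvenile body weight and kept as such, all birds were untreated and were grown under standard broiler conditions, and each line is 1 selected population, so line and the other genetic differences between the populations cannot be told apart. The methods state that the lines were raised apart through week 3 and together afterwards. Each array was a spotted cDNA array hybridised with amplified RNA of 1 bird in Cy3 and with a pool of the HG and LG pituitary samples of all 4 ages in Cy5, without dye swap, so every value below is a log2 ratio of a bird to that pool and a difference is HG minus LG on the log2 scale.

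The anterior pituitary secretes growth hormone, prolactin, thyrotropin, the gonadotropins luteinizing hormone and follicle-stimulating hormone, and the peptides cut from proopiomelanocortin. Thyrotropin and both gonadotropins share the alpha subunit CGA and differ in their beta subunits. Like other tissues, the gland expresses class I histocompatibility molecules, which display peptides from inside the cell, and genes that interferons induce, many of which act against viruses.

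Between 15215 and 18026 of 19200 printed spots carried no flag on these 8 arrays, and the median Cy3 signal was 3.07 to 6.28 times the local background. After filtering, 15607 spots were tested, of which 9278 carry a gene name (6004 names). Over these spots the arrays did not group by line. HG replicates 1, 3 and 4 and LG replicate 4 had mean correlations of 0.113, 0.176, 0.165 and 0.215 with their own line. With the other line these were 0.175, 0.279, 0.169 and 0.237. HG replicate 2 had the widest SD of log2 ratios (0.534, against 0.315 to 0.462 in the other arrays). Standard errors and p-values are those of limma fitted over all 31 arrays, and adjusted p is by Benjamini-Hochberg over the 15607 spots. All 10 spots of the pituitary hormones on the array passed the filter. In bulk tissue, fewer cells of a type and less RNA per cell cannot be told apart. The first principal component of the deviations from group means was taken over the 7786 spots on all 31 arrays (19.7% of the variance). It separated replicate numbers 3 and 4 (15 of 15 arrays on one side) from 1 and 2 (15 of 16 on the other) in both lines. Values within each pair of numbers are therefore given beside some of the main results.

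At week 5, 7 spots passed adjusted p 0.05 (0.0449% of those tested), and each of the 7 was higher in LG birds; 0 spots (0%) passed with higher values in HG birds. They carry the names LY6E, HECA, HLA-B, ARIH1, CPNE1 and USO1, and 1 spot has no name here. At unadjusted p under 0.05 there were 477 spots higher in LG (3.06%) and 397 higher in HG (2.54%). The birds of the 2 lines did not overlap at 275 spots in the LG direction (1.76%) and at 205 in the HG direction (1.31%), and the median difference over all tested spots was 7e-04.

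LY6E encodes an interferon-induced surface protein anchored in the membrane by a lipid. Its ratios were -0.69, -1.04, 0.27 and -0.19 in HG replicates 1 to 4 and 0.36, 1.05, 1.20 and 1.67 in LG replicates 1 to 4. Every LG bird lay above every HG bird, and the difference was -1.48 (SE 0.26, adjusted p = 0.0363 by limma), or 2.79-fold. A second LY6E spot differed by -1.44 (SE 0.37, adjusted p = 0.157) and another by -0.07 (SE 0.20), so the spots of the gene did not give 1 value.

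HLA-B is the study's name for a class I heavy chain spot that the platform annotation calls BF1, a class I gene of the chicken. Its ratios were -0.41, -0.60, 0.04 and -0.25 in HG birds and 0.68, 0.23, 1.09 and 1.24 in LG birds. The lines did not overlap, and the difference was -1.12 (SE 0.20, adjusted p = 0.0363), or 2.17-fold. Class I heavy chains are near copies of each other, so cDNA of related genes may bind the same spot.

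HECA, named for the headcase gene of Drosophila, had ratios of -1.07, -0.81, 0.06 and -0.31 in HG birds and 0.75, 1.15 and 1.39 in LG replicates 2 to 4, with LG replicate 1 flagged. All measured LG birds lay above all HG birds, with a difference of -1.63 (SE 0.28, adjusted p = 0.0363), or 3.09-fold. A second HECA spot differed by -1.11 (SE 0.26, adjusted p = 0.102).

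USO1 encodes a tether that holds transport vesicles to the Golgi. Its called spot had ratios of -0.75, -1.0, -0.14 and -0.51 in HG birds and 0.50, 0.64, 1.35 and 1.19 in LG birds, again without overlap (difference -1.52, SE 0.30, adjusted p = 0.0468). A second USO1 spot differed by -1.49 (SE 0.33, adjusted p = 0.0959), close to the first in size. Both take the name from the study's list of significant genes and have none in the platform annotation. Their likeness is therefore not independent support. Among the other 91 spots of the early secretory pathway and Golgi list, none passed adjusted p. Over all 92 spots 48 differences were above 0 and the median was 0.01. Unadjusted p was under 0.05 toward LG at 3 spots (3.26%) and toward HG at 2 (2.17%), near the 3.06% and 2.54% of all spots.

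CPNE1 encodes copine 1, a protein that binds membrane phospholipids in the presence of calcium. Its ratios were -0.62, -0.42, -0.10 and -0.48 in HG birds and 0.60, 0.28, 0.89 and 0.77 in LG birds (difference -1.04, SE 0.20, adjusted p = 0.0363), the smallest SE of the 7 spots. CPNE1 was the only called member of the secretory granule and exocytosis list, whose 45 tested spots had a median of -0.06.

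ARIH1 encodes a ubiquitin ligase of the RING-between-RING type. Its called spot had ratios of -0.65, -1.42, -2.28 and -0.31 in HG birds and 0.88, 0.51, 0.33 and 0.60 in LG birds. The HG birds were scattered over a wider range than the LG birds, but no HG bird reached an LG bird (difference -1.75, SE 0.33, adjusted p = 0.0363). Other ARIH1 spots differed by -0.75 (SE 0.19, adjusted p = 0.148) and -0.30 (SE 0.19).

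The unnamed spot 46.7.11 had ratios of -0.83, -0.45, 0.29 and -0.74 in HG birds and 0.14, 1.28, 1.52 and 2.02 in LG birds. HG replicate 3 lay above LG replicate 1, so the lines overlapped by 1 bird, with a difference of -1.67 (SE 0.32, adjusted p = 0.0363).

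**Figure D1:**
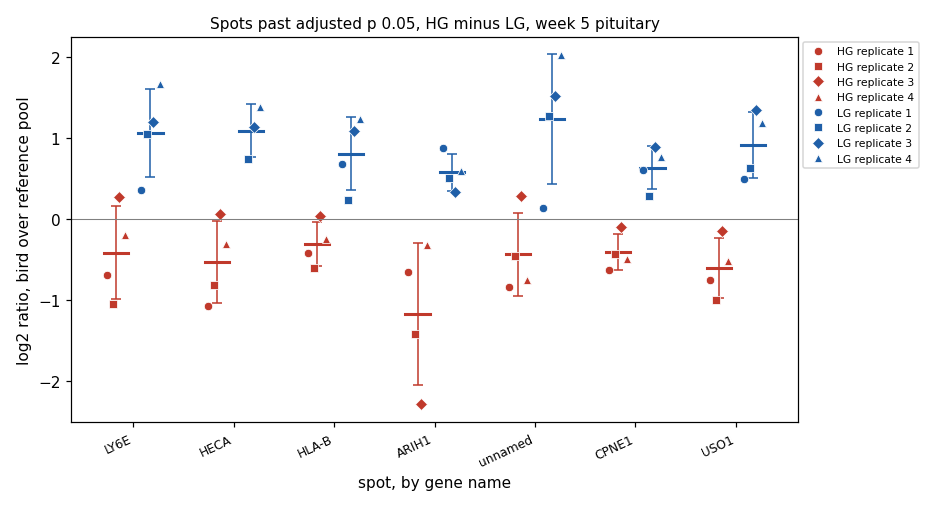
Log2 ratio of each bird to the reference pool (vertical axis) at the 7 spots past adjusted p 0.05 (horizontal axis), with HG birds in red, LG birds in blue, a marker shape for each replicate number, and bars for the mean and its SD. LG birds lie above HG birds at 6 of the spots without overlap, and at the unnamed spot HG replicate 3 (0.29) lies above LG replicate 1 (0.14).

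These calls rest on single birds and on the handling of the spots. Without LG replicate 4, LG replicate 3, HG replicate 1 or HG replicate 2 of week 5 no spot passed. At this age 1 spot passed without HG replicate 4 and 3 without LG replicate 2. The count was 10 without HG replicate 3 (10 higher in LG) and 45 without LG replicate 1 (44 higher in LG). Birds of other ages count through the shared spread: no spot passed without LG week 3 replicate 1 or without LG week 7 replicate 1, and 3 or 4 passed without LG week 1 replicate 2, HG week 3 replicate 3, LG week 3 replicate 3, HG week 7 replicate 1 or HG week 7 replicate 2. The differences of the 7 spots kept their sign under each of these fits. Within replicate numbers 1 and 2 the difference was -1.57 at LY6E, -0.97 at HLA-B, -1.68 at HECA, -1.44 at USO1, -0.97 at CPNE1 and -1.73 at ARIH1, and within numbers 3 and 4 it was -1.39, -1.27, -1.39, -1.59, -1.12 and -1.77 in the same order.

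In the authors' own normalized log2 ratios, 8758 spots could be tested and 30 passed adjusted p (0.343%), 28 of them higher in LG (0.32%) and 2 higher in HG (0.0228%). They include 6 of the 7 spots above. ARIH1 had too few values there, as had the GPM6B and PPP3R1 spots named below. Others higher in LG were a C1S spot (adjusted p by limma 0.0179), TGM2 (0.0179), TCF21 (0.0238) and the second USO1 spot (0.0238). ZNFX1 (0.0333), HERC4 (0.0335), CASP8 (0.0391), an RPS2 spot (0.0435) and AKR1B10 (0.0487) were also among them. The 4 OAS3 spots did not pass there (0.087 to 0.108). The 2 spots higher in HG were RGS5, a regulator of G protein signaling typical of pericytes, and VSIG10L, an immunoglobulin-domain membrane protein. RGS5 ratios on the scale used throughout were 0.52, 0.61, 0.25 and 0.24 in HG birds and -0.15, -0.21, -0.04 and -0.17 in LG birds, with a difference of 0.55 (SE 0.13, adjusted p = 0.0971; 0.0498 in the authors' values). A second RGS5 spot differed by 0.08 (SE 0.17). VSIG10L differed by 0.53 (SE 0.17, adjusted p = 0.513; 0.0242 in the authors' values), with 4 HG birds at 0.20 to 0.38 and 4 LG birds at -0.40 to -0.04.

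Interferon-induced genes gave many further LG-directed values, most of them short of the threshold. Of 45 tested spots of the list (25 genes), 1 passed adjusted p (LY6E), and 18 had unadjusted p under 0.05 toward LG, against 3.06% of all spots and with 0 toward HG. The median difference of the list was -0.41, against 7e-04 for all spots, and the differences ran from -2.32 to 0.46. At 10 of the 45 spots every LG bird lay above every HG bird, against 1.76% of all spots. The paper names some members, such as OAS3, CASP8 and IRF1, from its own line comparison on these arrays. These shares are therefore not independent of that comparison.

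OAS3 is the study's name for 4 spots of an oligoadenylate synthetase, an enzyme that activates RNA breakdown when it meets double-stranded RNA; the platform annotation calls 3 of them OASL and 1 DRG2. At the OAS3 spot with the smallest p the ratios were -2.19, -1.96, -1.41 and -1.05 in HG birds and -0.26, -0.18, 2.2 and 0.91 in LG birds. All HG birds lay below the pool, LG replicates 1 and 2 lay just below it, and LG replicates 3 and 4 lay above it. The difference at this spot was -1.86 within replicate numbers 1 and 2 and -2.79 within 3 and 4. The 4 spots differed by -2.32, -2.28, -2.08 and -2.0 (SE 0.52, 0.55, 0.47 and 0.51), about 4.01- to 5.00-fold, with adjusted p of 0.0959, 0.111, 0.0959 and 0.149.

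Other members followed with smaller differences. ZNFX1, a helicase that senses viral RNA, had -0.21, -0.73, -0.01 and -0.11 in HG birds and 0.35, 0.64, 1.74 and 1.57 in LG birds (difference -1.34, SE 0.31, adjusted p = 0.0959). There LG replicates 3 and 4 were the highest birds and no HG bird reached an LG bird.

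ADAR, an RNA-editing enzyme, differed by -0.73 (SE 0.17, adjusted p = 0.0959), with HG birds from -0.99 to -0.25 and LG birds from -0.12 to 0.72. RNF213, a large ubiquitin ligase, differed by -1.08 (SE 0.27, adjusted p = 0.148), and a second spot of it had unadjusted p over 0.05. CASP8, a caspase that the platform annotation calls CASP18, differed by -1.62 (SE 0.37, adjusted p = 0.0959), and here HG replicate 3 at 0.50 lay above LG replicate 1 at 0.16. Spots of NMI (-0.75), IFI35 (-0.71), USP18 (-0.91 and -0.81), GBP1 (-0.88), IRF1 (-0.88) and IRF8 (-0.43) also had unadjusted p under 0.05 toward LG. The receptors and some other members did not: the spots of IFNGR1, IFNGR2, IFNAR2, JAK1, IRF7, XAF1 and MX1 all had unadjusted p over 0.05.

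The median over the list was -0.14 to -0.08 in the 4 HG birds and 0.13, 0.16, 0.62 and 0.54 in LG replicates 1 to 4. Every LG bird lay above every HG bird, and LG replicates 3 and 4 lay farthest out. Without those 2 birds the list median was -0.33; within replicate numbers 1 and 2 it was -0.23 and within 3 and 4 it was -0.52. Over the 37 spots whose names do not conflict it was -0.26.

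Class I antigen presentation gave the same direction. Of 34 tested spots of the list (13 genes), 1 passed adjusted p (HLA-B), 16 (47.1%) had unadjusted p under 0.05 toward LG and 0 toward HG, against 3.06% and 2.54% of all spots, and at 11 spots the LG birds lay wholly above the HG birds, against 1.76% of all spots. The median difference was -0.45 and the range -1.5 to 0.47. Heavy chain spots led the list. Here too the paper names members, such as B2M, from its own line comparison on these arrays.

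Of 4 spots that the study names MR1, and that the platform annotation calls BF1, BF2, MHCY4 and COQ10B, the differences were -1.17, -1.09, -1.5 and -0.97, with adjusted p of 0.207, 0.0959, 0.636 and 0.296. The partners of the heavy chain differed less. B2M, the light chain common to class I molecules, differed by -0.61, -0.61 and -0.56 at 3 of its 5 spots (adjusted p = 0.779, 0.838 and 0.885), with LG replicate 4 highest at 1.38, 1.45 and 1.47. TAP2, a subunit of the peptide transporter, differed by -0.69 (SE 0.25), TAPBP, which links the transporter to class I molecules, by -0.58 (SE 0.26), and ERAP1, a peptidase that trims the peptides, by -0.62 and -0.41, all with unadjusted p under 0.05 only. The chaperone spots of the list, PDIA3 and CALR, lay on the HG side with unadjusted p over 0.05.

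The list median was -0.31 to 0.04 in HG birds and -0.02, 0.15, 0.39 and 0.60 in LG replicates 1 to 4, so LG replicate 1 lay among the HG birds. Without LG replicates 3 and 4 the list median was -0.16; within replicate numbers 1 and 2 it was -0.24 and within 3 and 4 it was -0.57. Over the 28 spots without a name conflict it was -0.27.

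**Figure D2:**
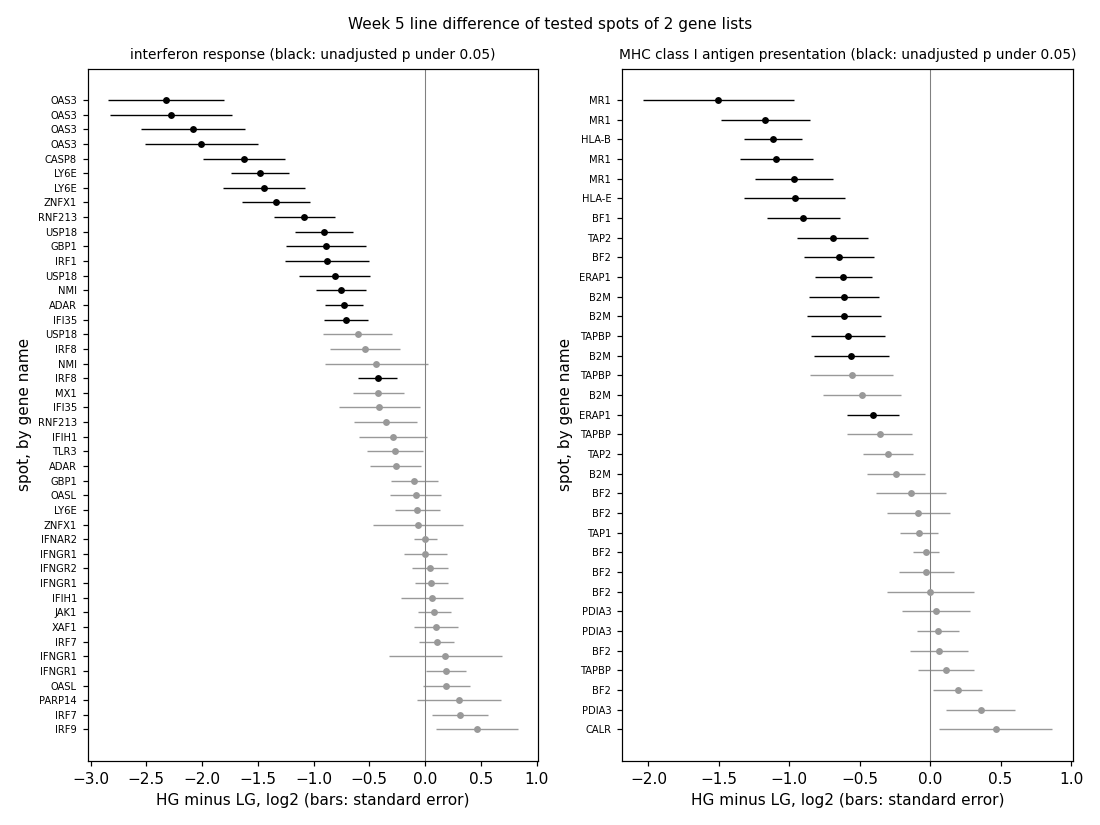
HG minus LG at week 5 on the log2 scale (horizontal axis) for 44 tested spots of the interferon response list (left) and 33 of the class I antigen presentation list (right), without the spots not reported here, with bars for the standard error of limma and black for unadjusted p under 0.05. The black spots all lie left of 0, toward LG, from -2.32 (OAS3) to -0.43 (IRF8) in the left panel and from -1.5 (MR1) to -0.41 (ERAP1) in the right panel.

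The complement list held differences in both directions. The proteases C1S and C1R, which start the classical pathway once antibody is bound, lay toward LG at 5 spots, C1S by -1.45, -1.44 and -1.17 and C1R by -0.94 and -0.46 (adjusted p from 0.0959 to 0.231). At one C1S spot the ratios were 0.07, -0.83, 0.36 and -0.24 in HG birds and 0.57, 1.15, 1.41 and 2.01 in LG birds, without overlap. At the C1S spot with the largest difference the lines overlapped, with HG replicate 3 at 0.28 and LG replicate 1 at 0.13. C1QB, C1QC and CD59, a brake on complement, differed by -0.70, -0.41 and -0.42, while CFD and CLU lay toward HG by 0.54 and 0.53, all 5 at unadjusted p under 0.05. At C1QB the difference was -0.38 without HG replicate 2, and at CD59 -0.26 without LG replicate 4. Over the 26 spots the median was -0.04 (-0.21 without HG replicate 1 and -0.0037 without HG replicate 2). Toward LG 8 spots (30.8%) and toward HG 2 (7.69%) had unadjusted p under 0.05, against 3.06% and 2.54% of all spots.

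Markers of immune cells were read beside these lists. Of 13 spots of macrophages and granulocytes, 9 lay toward LG, with a median of -0.20. Toward LG 3 spots (23.1%, against 3.06% of all spots) had unadjusted p under 0.05. All were of the protease CTSS, which also belongs to class II presentation (-0.36, -0.34 and -0.32). The marker median was -0.21 to 0.02 in HG birds and 0.11, 0.29, -0.04 and 0.04 in LG replicates 1 to 4, so LG replicates 3 and 4, high in the interferon list, were the lower of the LG birds here. The list median was -0.03 without LG replicate 2 and -0.11 without HG replicate 3. The 4 T cell spots had a median of -0.16 and the 4 spots of B and plasma cells, immunoglobulin light chain IGLL1 and joining chain IGJ, a median of -0.72, with unadjusted p over 0.05 at each. Without HG replicate 3 these medians were -0.07 and -0.41, and without LG replicate 2 they were -0.09 and -0.31. The part of immune cells in the interferon and class I values was not tested.

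Outside these lists, several spots gave large differences in the same direction. DHRS3, an enzyme that reduces retinal, had ratios of -1.44, -1.23, -1.13 and -1.11 in HG birds and -0.12, 1.99 and 0.63 in LG replicates 1, 3 and 4 (difference -2.07, SE 0.44, adjusted p = 0.0851). Its other 2 spots differed by 0.23 (SE 0.19) and 0.18 (SE 0.18), on the other side of 0, so the difference belongs to 1 spot. GPM6B, a membrane glycoprotein of the proteolipid family, had -1.27, -1.22, -0.78 and -1.03 in HG birds and -0.01, -0.22, 1.78 and 0.63 in LG birds (difference -1.62, SE 0.42, adjusted p = 0.172), with LG replicate 3 highest as at OAS3 and DHRS3. At weeks 1, 3 and 7 this DHRS3 spot differed by 0.62, 1.07 and 0.10, and GPM6B by 0.55, 1.05 and -0.06. The OAS3 spot at -2.08 differed by 0.45, 1.17 and 0.10 at these ages. Whether these spots carry a common signal was not tested.

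HERC4, the study's name for a ubiquitin ligase spot that the platform annotation lists as LOC422513, differed by -1.57 (SE 0.31, adjusted p = 0.0582), with HG birds at -0.82 to -0.30 and LG birds at 0.17 to 1.68. GLUL, glutamine synthetase, differed by -1.26 (SE 0.34, adjusted p = 0.222), and PPP3R1, the regulatory subunit of calcineurin, by -1.02 (SE 0.24, adjusted p = 0.0959). TCF21, a transcription factor of mesenchymal cells, differed by -0.64 (SE 0.15, adjusted p = 0.0959), with 4 HG birds at -0.53 to -0.17 and 4 LG birds at 0.00 to 0.83.

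The hormone spots fell into 2 sets. The beta subunits FSHB, LHB and TSHB had higher ratios in every HG bird than in any LG bird, while the spots of growth hormone, prolactin, POMC and the common alpha subunit CGA had unadjusted p of 0.197 or more. None of the 10 spots passed adjusted p; 3 had unadjusted p under 0.05 toward HG, against 2.54% of all spots.

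FSHB, the beta subunit of follicle-stimulating hormone, had ratios of -0.18, 0.70, 0.77 and 0.54 in HG birds and -2.03, -1.26, -1.15 and -0.87 in LG birds (difference 1.78, SE 0.42, adjusted p = 0.0959). LHB, that of luteinizing hormone, had -0.11, 0.25, 0.84 and 0.75 in HG birds and -1.09, -1.34, -0.50 and -0.46 in LG birds (difference 1.28, SE 0.32, adjusted p = 0.157). In both, HG replicate 1 was the lowest HG bird. FSHB and LHB had too few values to be tested in the authors' log2 ratios. TSHB, that of thyrotropin, had 0.28, 0.63, 0.16 and 1.03 in HG birds and -0.60, -0.55, -0.70 and -0.15 in LG birds (difference 1.03, SE 0.27, adjusted p = 0.169).

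These 3 differences were of like size within replicate numbers 1 and 2 (1.91, 1.29 and 1.03 for FSHB, LHB and TSHB) and within 3 and 4 (1.66, 1.28 and 1.02). CGA differed by -0.04 (SE 0.43), with LG replicate 4 at -1.28 apart from the other LG birds at -0.24 to -0.10.

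Of 3 growth hormone spots, GH1, listed in the platform annotation as LOC420294, differed by -0.49 (SE 0.37) and the 2 named GH by -0.18 (SE 0.24) and -0.03 (SE 0.46). LG birds spread from -0.63 to 1.18 at GH1, wider than the line difference. PRL, prolactin, differed by 0.02 (SE 0.33), and the 2 POMC spots by 0.08 (SE 0.18) and 0.02 (SE 0.16), the smallest errors in the set.

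**Figure D3:**
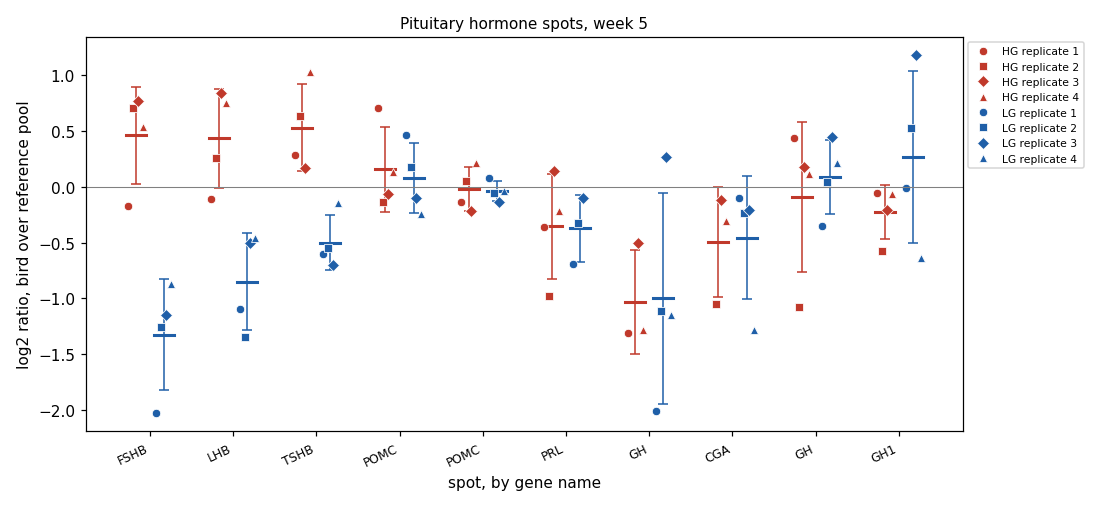
Log2 ratio of each bird to the reference pool (vertical axis) at the 10 pituitary hormone spots (horizontal axis, ordered by HG minus LG), with HG birds in red, LG birds in blue, a marker shape for each replicate number, and bars for the mean and its SD. HG birds lie wholly above LG birds at FSHB, LHB and TSHB (differences 1.78, 1.28 and 1.03), and the lines overlap at the other 7 spots.

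Around the hormones, the 14 spots of pituitary transcription factors had a median of -0.06 (-0.15 to -0.03 with any 1 week 5 bird left out), with 12 differences below 0 and unadjusted p of 0.086 or more at each; TBX19, which directs corticotroph fate, differed by -0.29 (SE 0.17) and GATA2, which acts in thyrotrophs and gonadotrophs, by -0.35 (SE 0.22). Among 18 receptor spots, 1 (5.56%, against 3.06% of all spots) had unadjusted p under 0.05 toward LG and 0 toward HG. It was HTR1B, a serotonin receptor, with a difference of -0.53 (SE 0.22, adjusted p = 0.788). CHGB, chromogranin B of secretory granules, differed by 0.45 (SE 0.36), and its 4 HG birds at -0.07 to 0.33 lay above the 4 LG birds at -0.53 to -0.20. DIO1, the deiodinase that converts thyroxine to its active form, gave opposite values at different spots, -1.14 at one and 0.40 to 0.86 at 4 others, all at unadjusted p under 0.05.

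Several enzymes stood apart with large differences in either direction. HPGDS, which makes prostaglandin D2, had ratios of -0.76, 0.13, 0.58 and 0.58 in HG birds and -1.44, -2.48, -2.15 and -2.58 in LG birds. HG replicate 1 was the lowest HG bird and LG replicate 1 the highest LG bird, and the difference was 2.29 (SE 0.54, adjusted p = 0.0959), or 4.91-fold. It was 1.64 within replicate numbers 1 and 2 and 2.95 within 3 and 4. TAT, tyrosine aminotransferase, a liver enzyme induced by glucocorticoids, differed by 1.13 (SE 0.25, adjusted p = 0.0959). Its HG birds were at 0.02 to 0.44 and LG replicates 1, 2 and 4 at -1.16 to -0.63, with no value for LG replicate 3. HPGDS and TAT had too few values to be tested in the authors' log2 ratios.

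AKR1B10, an aldo-keto reductase, had 0.17, -1.15, -0.44 and -0.51 in HG birds and 0.34, 0.72, 0.61 and 1.04 in LG birds (difference -1.16, SE 0.24, adjusted p = 0.0851). Other spots that the study names AKR1B10 differed by -0.95 (called PRKAB1 in the platform annotation), 0.43 (called AKR1B1) and -0.01, so its spots disagreed. TGM2, a protein cross-linking transglutaminase, differed by -1.04 (SE 0.22, adjusted p = 0.0851), with HG replicate 2 at -1.33 apart from the other HG birds at -0.51 to -0.42, and by -0.72 (SE 0.24) at a second spot. LCAT, which esterifies cholesterol in plasma lipoproteins, differed by -0.79 (SE 0.25, adjusted p = 0.449).

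Globin spots gave the largest HG-directed value among the named spots without overlap. HBE1, a beta-type globin, had ratios of 0.05, -1.04, 0.62 and -1.58 in HG birds and -3.15, -3.23, -2.04 and -3.36 in LG birds (difference 2.46, SE 0.61, adjusted p = 0.148). A second HBE1 spot, called HBBA in the platform annotation, differed by 1.09 (SE 0.39), and 2 HBA1 spots by 0.71 (SE 0.32) and 0.89 (SE 0.46). The HG birds were ordered alike at these spots, with replicates 1 and 3 high and 2 and 4 low. Of other erythrocyte markers, CA2, EPB41, SLC4A1 and H1F0 differed by -0.07 to 0.18, each with unadjusted p of 0.224 or more.

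STK10, a kinase of lymphocytes, had -0.06, -1.51, 0.26 and -1.48 in HG birds and -2.43, -2.58, -2.06 and -2.93 in LG birds (difference 1.80, SE 0.58, adjusted p = 0.475), the order of the globin spots; a second STK10 spot differed by -0.01 (SE 0.23). The part of blood content in these values was not tested.

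Among the other lists, cytosolic ribosomal proteins lay toward HG at 56 of 63 spots, with a median of 0.19 and 14 spots (22.2%) at unadjusted p under 0.05 toward HG and 1 toward LG, against 2.54% and 3.06% of all spots. Examples are RPS20 (0.57, SE 0.18, and 0.34 without HG replicate 2), RPS24 (0.41, SE 0.13) and RPL24 (0.25). HG replicate 2 was the highest bird in the list median, 0.28 against 0.05 to 0.09 in the other HG birds and -0.19 to 0.09 in LG birds. Without it the list median was 0.15, and within replicate numbers 3 and 4 it was 0.05 against 0.33 within 1 and 2. RPS2 gave opposite values at different spots, -1.01 (SE 0.29) and 0.38.

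Chaperones and stress genes of the endoplasmic reticulum had 5 of 58 spots at unadjusted p under 0.05, all toward HG (8.62%, against 2.54% of all spots). The list median was 0.04, with 37 differences above 0, and it was 0.08 within replicate numbers 1 and 2 and 0.01 within 3 and 4. They were QSOX1 (0.82), ERP29 (0.69), HSP90B1 (0.63), HSPA5 (0.49) and ERN1 (0.34), the sensor of unfolded proteins. HG replicate 2 at 1.40 lay apart at ERP29, where the other HG birds were at -0.09 to 0.13, and without it the difference was 0.35. Within replicate numbers 1 and 2 the difference was 0.97 at QSOX1, 0.72 at HSPA5 and 0.59 at ERN1. Within 3 and 4 it was 0.68, 0.26 and 0.19 in the same order. The vessel list had a median of 0.08, with 31 of 45 spots above 0. Toward HG 3 spots (6.67%) and toward LG 2 (4.44%) had unadjusted p under 0.05, against 2.54% and 3.06% of all spots. Those toward HG were SEMA3C, a secreted guidance protein, at 0.79 (SE 0.24, adjusted p = 0.394), the basement membrane collagen COL4A2 at 0.35 (SE 0.12), and a spot that the study names FLT1, a receptor of vascular endothelial growth factor, and the platform annotation VEGFRKDRL, at 0.62 (SE 0.19). Those toward LG were both of PODXL, a sialomucin of vessel lining cells, at -0.50 (SE 0.21) and -0.35 (SE 0.17), and its other 2 spots differed by 0.17 and 0.04. The paper names SEMA3C, FLT1 and PODXL from its own line comparison on these arrays. The shares of the vessel list are therefore not independent of that comparison.

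Matrix genes went both ways: SDC1, a cell surface proteoglycan, differed by 0.71 (SE 0.21) and MXRA7 by 0.64 (SE 0.19), while GPC3, another proteoglycan, differed by -0.71 (SE 0.19) with all LG birds above all HG birds. Of 16 spots of the glia list, 4 had unadjusted p under 0.05 toward LG, among them GLUL and SOX10 (-0.73, SE 0.29), and 1 toward HG, PTPRZ1 (0.56, SE 0.26). SOX10 was at 1.55 in LG replicate 1 and at -0.26 to 0.15 in the other LG birds; without that bird the difference was -0.34, and a second SOX10 spot differed by -0.02. Of 14 spots of the neuron, retina and pineal list, 5 lay above 0, and 3 toward LG and 0 toward HG had unadjusted p under 0.05, among them RGR (-0.75) and OPN4 (-0.48). At that level there were 0 of 18 skeletal muscle and 0 of 8 adipocyte spots in either direction. Oxidative phosphorylation had 0 of 51 spots at that level and a median of 0.02, and proliferation had 2 of 43 toward HG and 4 toward LG. The shares to set beside these and the following counts are 3.06% of all spots toward LG and 2.54% toward HG. Ubiquitin ligases and the proteasome had 5 of 106 spots toward LG at unadjusted p under 0.05 (4.72%), with ARIH1 the only call, and 1 toward HG. Cyclic AMP, G protein and calcium signaling had 5 of 44 toward LG and 1 toward HG, MAP kinase signaling 4 of 29 toward HG and 0 toward LG, and TGF-beta signaling 1 of 29 (3.45%) in each direction. Thyroid hormone genes had 4 of 49 spots toward HG and 1 toward LG, all of them spots of DIO1. Glucocorticoid-responsive genes had 2 of 22 toward HG and 4 toward LG, and lipid and cholesterol genes 5 of 74 toward HG and 3 toward LG. Cytosolic heat shock proteins had 0 of 41 toward HG and 2 (4.88%) toward LG. Markers of folliculostellate cells and the pars tuberalis had 2 of 10 toward HG and 1 toward LG. Those toward HG were CLU and the hormone subunit TSHB, both given above, and that toward LG was ANXA1 (-0.40, SE 0.11). The medians of these 9 lists lay between -0.07 and 0.09, and between -0.16 and 0.21 with any 1 week 5 bird left out.

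Of 3 endogenous retrovirus spots, 2 named ERV differed by -0.76 (SE 0.23, adjusted p = 0.394) and 0.11 (SE 0.34), and ALVE, the endogenous avian leukosis virus, by -1.97 (SE 1.31, unadjusted p = 0.145). HG replicate 3 was at -4.20 there, against -0.94 to 0.27 in the other HG birds, and without it the difference was -1.02. Class II presentation was represented by 4 spots of CTSS and 3 of CD74, the invariant chain, which differed by 0.14 to 0.49 with unadjusted p over 0.05.

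**Figure D4:**
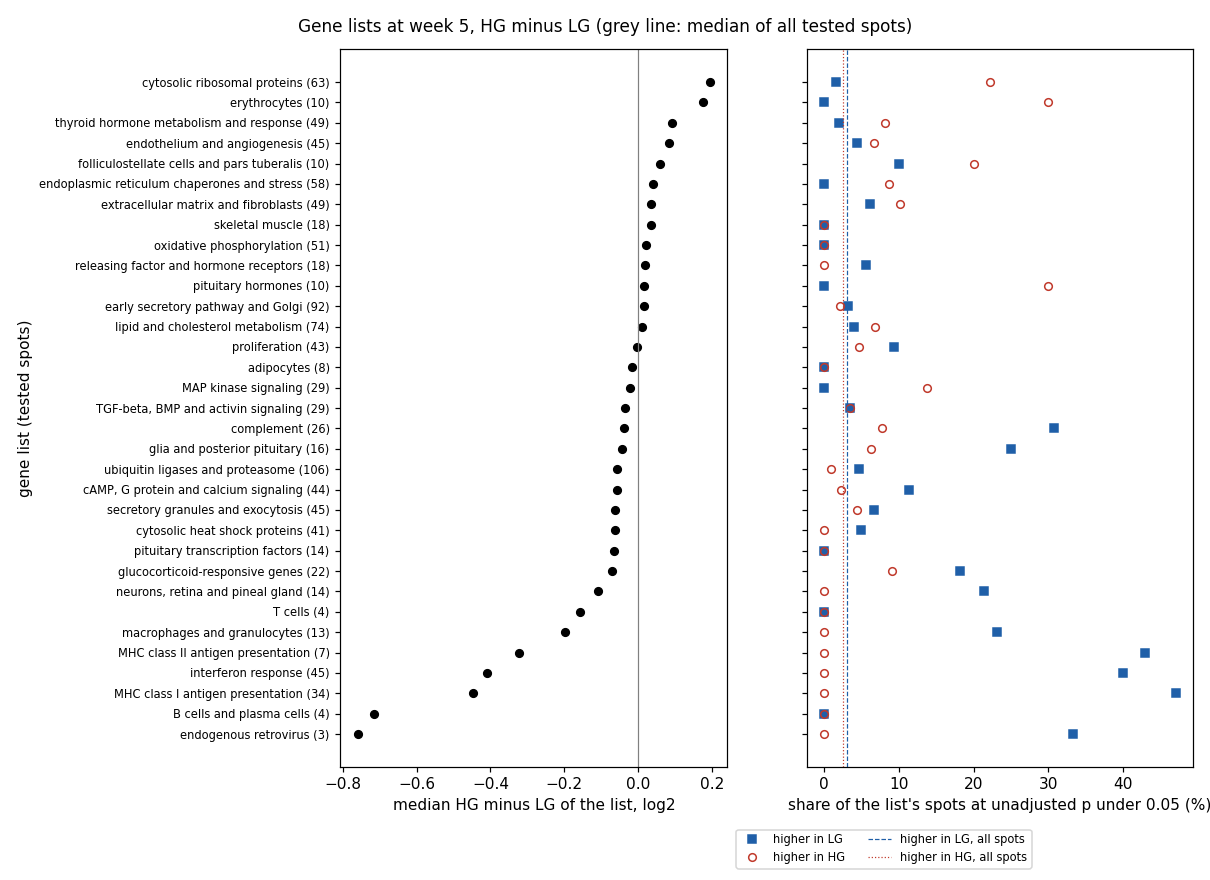
Median HG minus LG at week 5 of each gene list on the log2 scale (left, grey line at the median of all tested spots, 7e-04) and percent of its spots at unadjusted p under 0.05 (right) toward LG (blue squares) and toward HG (red circles), with the shares over all spots as lines (3.06% and 2.54%) and the number of tested spots in brackets. Interferon response and class I presentation lie lowest among the lists of over 10 spots (-0.41 and -0.45), and ribosomal proteins highest (0.19).

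The week 5 differences are set beside those of the other ages here. The contrast of the week 5 line difference with the mean line difference at weeks 1, 3 and 7 gave 0 calls of 15607 by limma (0%), with 483 spots at unadjusted p under 0.05 (3.09%) and a smallest adjusted p of 0.218 at DHRS3; the differences between ages below are therefore values without a call. By itself, the line comparison gave 0 calls at week 1, 0 at week 3 and 6 at week 7 (0.0384%) by limma, with 491 (3.15%), 643 (4.12%) and 818 (5.24%) spots at unadjusted p under 0.05.

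Interferon-induced genes had differences of another sign or size at the other ages. OAS3 differed by 0.58 at week 1, 1.08 at week 3 and -0.35 at week 7 at the spot that differed by -2.32 at week 5 (contrast -2.76, SE 0.61, unadjusted p = 0.000103). LY6E differed by 0.48, -0.06 and -0.37 at weeks 1, 3 and 7 (contrast -1.5, SE 0.30, unadjusted p = 3.58e-05). Both spots are among those named for the smallest p of this contrast. Outside the interferon list, the called USO1 spot differed by -0.05, 0.29 and -0.24 at these ages (contrast -1.52, SE 0.34, unadjusted p = 0.000144). The interferon list median was 0.11, 0.07 and -0.09 at weeks 1, 3 and 7. In the contrast, 17 of its 45 spots had unadjusted p under 0.05 toward LG, against 1.81% of all spots. The contrast contains the same week 5 values, so this count is not separate from the week 5 count of the list.

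The class I heavy chain spot HLA-B was lower in HG from week 3 on in its means, with differences of 0.01, -0.71, -1.12 and -0.59 at weeks 1, 3, 5 and 7. In the list, 7 spots at week 3 and 8 at week 7 had unadjusted p under 0.05 toward LG, against 16 at week 5, and 0 at week 1, where 4 lay toward HG; over all spots these shares were 2.02% at week 3 and 2.93% at week 7 toward LG, and 1.33% toward LG and 1.82% toward HG at week 1.

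The hormone beta subunits FSHB, LHB and TSHB, HPGDS, CPNE1 and the AKR1B10 spot at -1.16 had differences of one sign at each age. FSHB differed by 0.16, 1.29, 1.78 and 1.37 at weeks 1, 3, 5 and 7, LHB by 0.40, 1.26, 1.28 and 1.43, TSHB by 0.39, 1.33, 1.03 and 0.70, and HPGDS by 1.06, 2.02, 2.29 and 2.42. AKR1B10 differed by -0.44, -0.73, -1.16 and -0.93 and CPNE1 by -0.39, -0.90, -1.04 and -0.65. For these 6 spots the contrast of week 5 with the other ages had unadjusted p of 0.0959 or more by limma.

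HBE1 had differences of opposite sign at weeks 5 and 7, with values of 1.16, 0.94 and 2.46 at weeks 1, 3 and 5 and -2.68 (SE 0.66) at week 7, where p adjusted over all spots was 0.2; STK10 went from 1.80 to -1.86 between weeks 5 and 7. The joining chain IGJ, called at week 7 (adjusted p = 0.0223), differed by -2.10 there and by -0.15 (SE 0.38) at week 5.

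**Figure D5:**
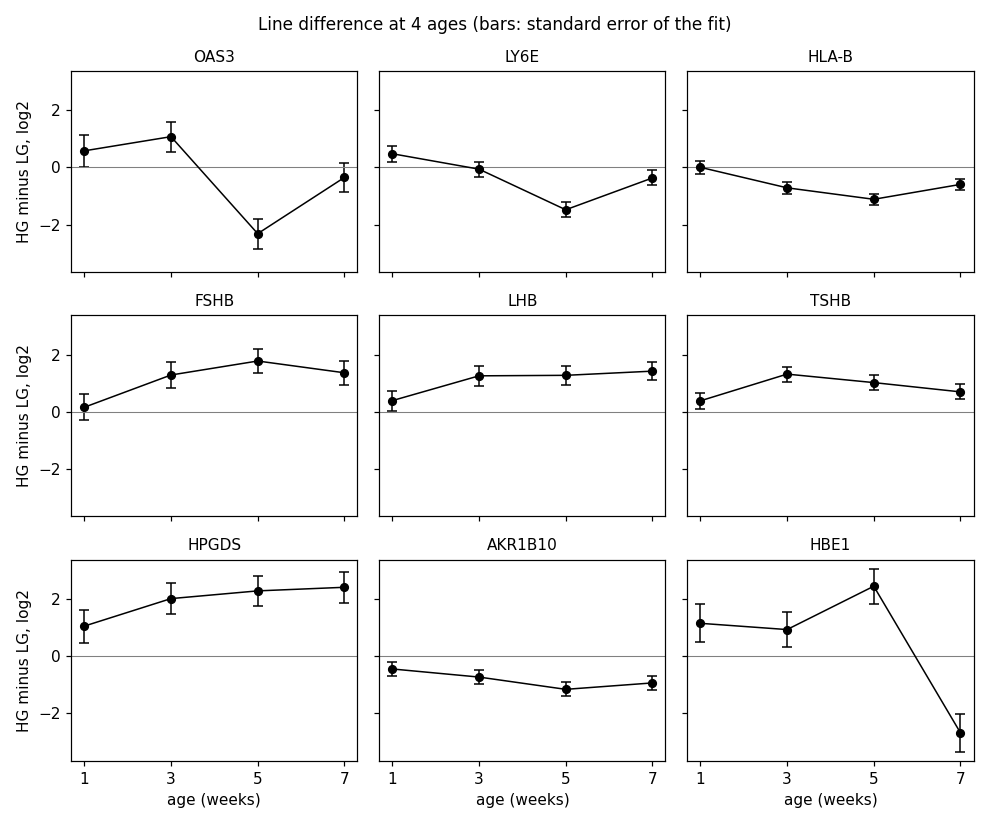
HG minus LG on the log2 scale (vertical axis) at weeks 1, 3, 5 and 7 (horizontal axis) for single spots of 9 genes, with bars for the standard error of limma. OAS3 lies at -2.32 at week 5 and above 0 at weeks 1 and 3, the hormone beta subunits and HPGDS lie above 0 and the AKR1B10 spot below 0 at each age, and HBE1 lies at 2.46 at week 5 and -2.68 at week 7.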

How the data were processed

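Per the file headers, the authors read the spots with Spotfinder 2.2.4, and the deposited columns hold, for each channel, an intensity and a local background that is still included in it (Cy5 lay below it at 0.202% of spots not flagged). The deposited log2 ratios of Cy3 to Cy5 were made by the authors in MIDAS 2.18 (signal-to-noise threshold 3.0 in both channels, lowess per print block at 0.33, standard deviation regularization) and served as an alternative. Here normexp (offset 50) removed the background, log2 ratios were formed, loess was applied to each array, and flagged spots were left out. Spots were tested when present on at least 16 of 31 arrays, 1 array of every group and 3 arrays of each week 5 group. A model with 8 group means (limma 3.58.1, R 4.3.3) was fitted to all 31 arrays for a common spread; p was adjusted by Benjamini-Hochberg, with 0.05 as threshold. The fit was run on simulated data with planted changes and with noise independent between spots and arrays. Those data lacked the component of the replicate numbers, so the run does not bear on the stability of the calls. The number of arrays limits the precision; replicates are single birds.

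The named spots are those called, those also called in the authors' values, the 10 largest differences without overlap in each direction, the 6 smallest p against other ages in each direction, up to 4 members of each list, and the hormone and RT-qPCR genes of the study; not every one is printed, and some genes, counted in the lists, are not reported here. Members, lists and tests were chosen with earlier results of these data known, and the retrovirus list holds only names found among genes the study called. Several other lists, among them interferon response, class I presentation, chaperones and vessels, hold genes that the paper reports as differing between the lines. Their shares are not independent of the paper's comparison on these arrays. The lists cover pituitary hormones, transcription factors, receptors, secretion, chaperones, immunity, signaling, vessels, metabolism, matrix, proliferation and markers of other cells. Names come from the study's gene list, otherwise from the platform annotation, and 46 tested spots have conflicting names. The study's list holds genes significant in its own tests, so spots that it alone names were selected on these data. The file of HG week 1 replicate 1 holds an inner header for week 3; its label was followed. Alternatives covered background, normalization, filters, the prior, weights, the replicate block and single arrays left out. Added after seeing the data were a block of replicate numbers 1 and 2 against 3 and 4, fits within these, the deposited table with the replicate block, a fit without LG replicates 3 and 4, and lists without name conflicts.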

Additional observations from a re-analysis of the deposited data

Results flagged for a closer look

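Within the week 5 groups of 4 birds, 24 birds at the named spots lay farther from the others than Dixon's 95% critical value allows, of 294 groups looked at; chance flags about 1 in 20. LG replicate 4 lay apart at LYPLA1, a lysophospholipase (6.42, the nearest bird at 0.62), AP2B1 (-2.21, -0.69), CGA (-1.28, -0.24), LCAT (0.91, 0.47), CD3E (-0.56, 0.07) and ATP5H (0.32, 0.03). The LYPLA1 difference of -1.77 (SE 0.74) was -0.32 within replicate numbers 1 and 2 and -3.23 within 3 and 4.

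HG replicate 2 lay apart at THRSP, a lipogenic protein induced by thyroid hormone (2.2, nearest 0.39), PSMD9 (1.96, -0.03), SEC31A (1.53, -0.14), ERP29 (1.40, 0.13), RPS20 (1.06, 0.15) and TGM2 (-1.33, -0.51). HG replicate 3 lay apart at AKR1B1, called AKR1E2 in the platform annotation (-0.15, -0.62), C1S (0.28, -0.44), EXOC4 (0.11, -0.26) and a GAPDH spot (0.12, -0.23), and HG replicate 4 at CD3E (-1.01, -0.30) and an OAS3 spot (-0.78, -1.33). At SMAD1, a mediator of bone morphogenetic protein signals, HG replicate 1 (3.01, nearest 0.66) and LG replicate 1 (0.37, -0.40) both lay apart. LG replicate 1 also lay apart at FSTL1 (1.44, 0.38), LG replicate 2 at PTPRZ1 (-0.82, -0.37) and LG replicate 3 at GATA2 (0.20, -0.43) and HBE1 (-2.04, -3.15).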

How the results depend on the processing

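The count of 7 spots past adjusted p at week 5 moved with the processing. It was 30 in the deposited table, 29 without background correction, 41 with signal over background of at least 3 in both channels, 1 with array weights, and 0 with median centring, with scaling between arrays, with flagged spots kept, with only the 8 week 5 arrays and in the two-way model without moderation; at unadjusted p it was 874. It stayed at 6 to 8 with print-tip loess, 1 array per group, spots on all 8 arrays, a trend and robust prior and averaged clones. Leaving out 1 array gave 0 to 45 calls, and 0 to 7 in the contrast with the other ages. Of the alternatives chosen after the data were seen, the fit without LG replicates 3 and 4 gave 1, replicate numbers within 1 and 2 gave 39 (20 higher in HG, 19 in LG) and within 3 and 4 gave 0. The cause of these shifts was not tested. Alternatives changed no sign at a called named spot. Of 33 lists, 13 had a median above 0, and 12 to 16 under the alternatives.

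Replicate numbers came from the labels. Deviations of same-numbered HG and LG birds at week 5 correlated at 0.35, -0.03, 0.32 and 0.12 for numbers 1 to 4. Differently numbered pairs correlated at -0.15 to 0.20 within numbers 1 and 2 or 3 and 4, and at -0.30 to 0.05 across them. The labels name no shared source for a number, and the fit used no block, as in the study's methods. With the replicate block 13 spots passed (0 higher in HG), with numbers 1 and 2 against 3 and 4 as a replicate block 20 (2 higher in HG), and in the deposited table with the block 50 (10 higher in HG). A block of slide or scan date was not run, since the headers give none. The median Cy3 signal was lowest over background in HG and LG replicate 1 (3.07 and 3.22 times); its effect on dim spots was not tested.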
